A study of Caenorhabditis elegans with 10 samples.

Results

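The histone genes described here are all genes of the deposited table whose name starts with *his-*. Membership was set by name alone, but the family was picked with earlier results of these data known. The annotation of *C. elegans* (WBcel235) lists 72 such genes, and 44 of them were among the 15106 genes of the table. Of the 44, 43 reached an average of 10 normalized counts over the 8 libraries at 20°C and were tested with the other genes that passed this filter, 13869 in all. The remaining one, *his-49*, an H3 gene, was listed at 3.90 to 23.1 normalized counts in the 10 libraries and was not tested.

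The core histones H2A, H2B, H3 and H4 form the nucleosome, the protein core around which DNA is wrapped, and the linker histone H1 binds the DNA between nucleosomes. In animals, most core histone genes are intronless, lie in clusters, and are transcribed when DNA is replicated, giving mRNAs that typically end in a stem-loop instead of a poly(A) tail. H3.3 is a variant of H3 that is put into chromatin also outside of DNA replication, and its genes often carry introns. In an adult *C. elegans* hermaphrodite the somatic cells no longer divide, whereas the germline and the embryos held in the uterus do.

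RNA from whole young adults of 4 strains was sequenced, to follow transcripts that depend on nonsense-mediated decay (NMD), the pathway that degrades mRNAs with premature stop codons. N2 is the wild type and carries no transgene. *smg-1(rrr59)* and *smg-2(rrr60)* lack functional NMD factors, come from a mutagenesis screen, and both carry the R-1 reporter, a single-copy transgene that drives GFP fused to H2B from the ubiquitous *dpy-30* promoter. *clk-2(qm37)* is a temperature-sensitive mutant of CLK-2/TEL2 and carries the R-2 reporter, in which both mCherry and GFP are fused to H2B. The human counterpart of CLK-2, TELO2, takes part in the assembly of kinases of the PIKK family, among them SMG1. Each strain gave 2 libraries at 20°C, and N2 and *clk-2* gave 1 more each after 3 hours at 25°C, which the labels call heat shock. Thus, all mutants differ from N2 also by a transgene that contains H2B, and whether its reads were counted for any H2B gene was not tested. The columns assigned to *clk-2* bear a name that joins the names of both temperature-sensitive alleles, and were matched by the gene. The labels name both a TruSeq mRNA kit and a ScriptSeq total RNA kit, while the Methods describe rRNA depletion followed by ScriptSeq. Since histone mRNAs mostly lack poly(A) tails, the way RNA was selected bears on all levels below. Which kit each library had was not given per library, and its part in the results was not tested.

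The libraries held 3051836 to 14209955 counted reads, so 1 read was worth 0.643 to 2.93 normalized counts, and most in *clk-2* replicate 1 (2.59) and in *clk-2* at 25°C (2.93). The replicates of each strain differed by more than sampling noise, with a chi-square per degree of freedom between 5.19 and 21.2. The labels do not say whether replicates came from separate cultures, so p-values measure the spread between these samples, which may be technical. The mutated genes were not lower in their own mutants: *smg-1* was at 2222 and 2021 normalized counts in N2 and at 6206 and 5817 in *smg-1*, *smg-2* at 1202 and 987 in N2 and at 1620 and 1673 in *smg-2*, and *clk-2* at 598 and 485 in N2 and at 497 and 670.0 in *clk-2*. Markers of the tissues of the adult were present, among them 39 sperm genes, 14 oocyte and egg genes and 6 vitellogenin genes. Of 12 genes of early embryonic transcription, 2 were in the table, *pes-10* and *sdz-28*.

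The table did not cover all histone types equally. It held 13 of 16 annotated H4 genes, 11 of 15 H3 genes, 7 of 17 H2A genes and 6 of 16 H2B genes. All 5 genes of H3 variants (*his-69*, *his-70*, *his-71*, *his-72* and *his-74*) and the H1 gene *his-24* were in it, as was *his-73*, a short gene model of 46 codons. Reads with several matches in the genome were dropped by the authors, which affects genes with near-identical copies. Of the 28 histone genes that were not in the table, 25 share one gene symbol with another histone gene in the Ensembl annotation, as do 11 of the 44 in the table. These 11 are *his-10*, *his-12*, *his-13*, *his-15*, *his-28*, *his-45*, *his-46*, *his-47*, *his-49*, *his-55* and *his-56*. For 5 of the 44, the RefSeq symbol used here differs from the Ensembl symbol, so that *his-28* is named *his-50* in Ensembl and *his-10* is named *his-14*. Of the 44 genes, 37 have a single exon, with an annotated model that spans the coding length only, and 7 have 2 or 3 exons.

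Most of the single-exon genes lay in clusters of H2A, H2B, H3 and H4 genes, many of them head to head. In 15 pairs of neighbours in the table, the starts of both genes were at most 369 bp apart, such as H3 *his-2* with H4 *his-1*, and H2B *his-4* with H2A *his-3*. The largest clusters with members in the table were the *his-1* locus (chromosome V, 16040144 to 16042831), the *his-5* locus (V, 8532715 to 8536716), the *his-17* locus (V, 8889488 to 8898539), the *his-29* locus (IV, 8331044 to 8336340), the *his-45* locus (IV, 11324056 to 11341703), the *his-59* locus (IV, 7485834 to 7488659), the *his-63* locus (IV, 11400415 to 11407427) and the *his-9* locus (II, 13817760 to 13828697). At the *his-49* locus (V, 8847393 to 8854053), 1 of 6 genes was in the table. Smaller groups were the *his-38* locus (X, 7309564 to 7310520), the *his-67* locus (I, 9988452 to 9989515), the *his-69* locus (III, 4058360 to 4060119) and the *his-35* locus (V, 9544659 to 9547607), whose genes *his-35*, *his-37* and *his-41* carry introns. Clusters are named here after their lowest numbered gene, and genes closer than 20 kb were joined.

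Levels of the histone genes in N2 at 20°C spanned 4 orders of magnitude, and the highest were H4 genes (see the plot of levels by type). Per kb of exon, the mean level of the N2 libraries ranged from 10.7 normalized counts for *his-49* to 120956 for *his-64*, an 11280-fold span, with a median of 297 over the 44 genes. Within H4 it ranged from 83.7 for *his-28* to 120956 for *his-64*, around a median of 1326 per kb. H3 genes ranged from 10.7 to 10378 per kb (*his-59*), with a median of 178. H2A genes ranged from 36.4 (*his-47*) to 5464 per kb (*his-61*), with a median of 654, and H2B genes from 27.6 (*his-8*) to 3876 per kb (*his-62*), with a median of 377. The H3 variants were closer to each other, between 41.4 per kb for *his-69* and 677 for *his-74*, and H1 *his-24* was at 74.5 per kb. In each core type the leading gene came from the *his-59* or the *his-63* locus on chromosome IV. The values are of uniquely matching reads over the whole exon, so a gene that shares part of its sequence with a copy is measured too low by an amount that was not determined.

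**Figure D1:**
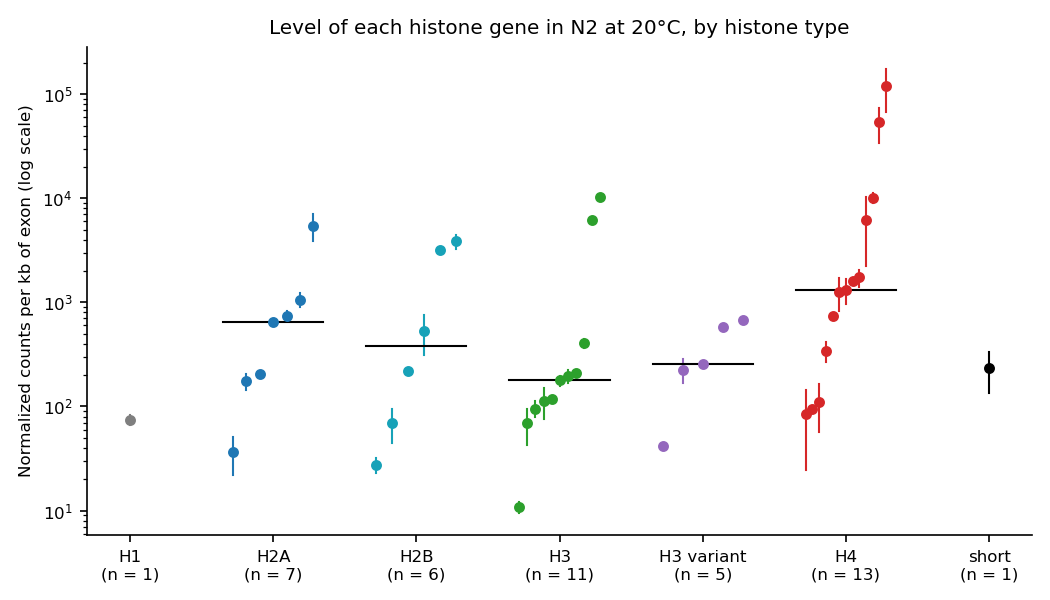
Normalized counts per kb of exon of the 44 histone genes in N2 at 20°C, on a log scale, by histone type. Each point is the mean of the 2 N2 libraries, the vertical lines run from one library to the other, and the horizontal bars are the medians of types with several genes. H4 genes reach 120956 per kb, and the N2 libraries lie farthest apart for some H4 genes.

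A pair of H4 genes held most of the histone reads. *his-64* (IV, 11407116 to 11407427, plus strand) and *his-60* (IV, 7487681 to 7487992, minus strand) together took 58.1% to 86.6% of all normalized counts of histone genes, depending on the library. *his-64* was at 21162 and 54315 normalized counts in the N2 replicates, 102023 and 56738 in those of *clk-2*, 21952 and 27792 in *smg-1* and 15437 and 22253 in *smg-2* at 20°C, while at 25°C N2 was at 80014 and *clk-2* at 126073. *his-60* was at 10627 and 22904 normalized counts in the N2 replicates, 30547 and 22700.2 in those of *clk-2*, 9859 and 11481 in *smg-1* and 8375 and 11544 in *smg-2* at 20°C, while at 25°C N2 was at 26978 and *clk-2* at 38657. For both genes, N2 replicate 2 was at least 2-fold above N2 replicate 1 and close to *clk-2* replicate 2. At 20°C, *his-64* was higher in each *clk-2* library than in either of N2, by a small margin in replicate 2, whereas N2 and *clk-2* overlapped for *his-60*. Neither passed the test in *clk-2*, with log2 fold changes of 1.17 (standard error 0.40, limma adjusted p = 0.0572) and 0.76 (standard error 0.31, limma adjusted p = 0.0991).

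All histone genes together made up 0.445% to 0.619% of the normalized counts in the *smg-1* and *smg-2* libraries, 0.549% and 1.05% in N2, and 1.75% and 1.25% in *clk-2* at 20°C (see the plot of histone shares). At 25°C they made up 1.37% in N2 and 2.13% in *clk-2*. Without *his-60* and *his-64*, the shares were between 0.170% and 0.256% in the *smg* mutants, 0.220% and 0.245% in N2, and 0.294% and 0.384% in *clk-2*. The summed H4 counts were 5.16 and 11.7 times the summed H3 counts in the N2 replicates, and 29.7 and 10.8 times in the *clk-2* replicates. The H3 sum was at 7368 and 7375 normalized counts in the same N2 libraries. Across the 10 libraries, H4 genes took 0.315% to 2.01% of the normalized counts and H3 genes 0.0440% to 0.0975%. The shares of all histone genes together and of H4 were largest in *clk-2* at 25°C and *clk-2* replicate 1, the libraries with the fewest reads, and the part of library depth in this was not tested. The share of H3 and that without *his-60* and *his-64* were largest in *clk-2* replicate 2, the library with the most reads.

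**Figure D2:**
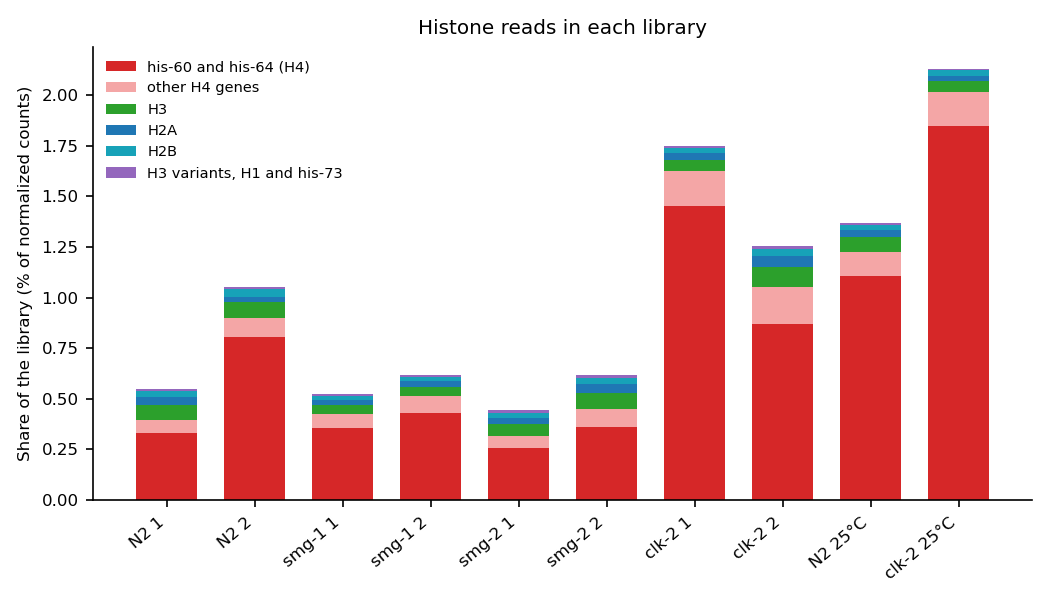
Share of each library's normalized counts that fell on histone genes, in percent, stacked by gene group, for the 8 libraries at 20°C (strain and replicate number) and the 2 libraries at 25°C. *his-60* and *his-64* form the largest segment in each bar, and the total is highest in *clk-2* at 25°C (2.13%) and in *clk-2* replicate 1 (1.75%).

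The first comparison was between *clk-2* and N2 at 20°C, each with 2 libraries. Of the 43 histone genes tested, 14 rose and 4 fell in *clk-2* at an adjusted p under 0.05 (limma on log2 of the normalized count plus 1, Benjamini-Hochberg over all 13869 genes). Over all genes tested, 12.2% rose and 15.8% fell. Histone genes had a median log2 fold change of 0.22, and all genes one of 0.02. Among the 14 that rose were 7 of 13 H4 genes, 5 of 10 H3 genes and 2 of 7 H2A genes, while no H2B gene, H1 or H3 variant did. The 4 that fell were H2A *his-12* and *his-35*, H3 *his-13* and the H3 variant *his-70*. All 14 genes that rose were single-exon genes.

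The genes that rose lay together (see the plot of changes by locus). Of 15 tested genes at the *his-1*, *his-5*, *his-17*, *his-29* and *his-38* loci, 13 rose, with log2 fold changes of the 15 between 1.12 and 3.16 and a median of 1.94. The other 2, H2B *his-4* and *his-8*, were at 1.12 (adjusted p = 0.106) and 1.13 (adjusted p = 0.187, limma), and both are low in reads. In contrast, of 12 tested genes at the *his-45*, *his-59* and *his-63* loci on chromosome IV, none was called, with a median of −0.01 and a range from −0.46 to 1.22. Outside the 5 loci, H4 *his-67* alone rose. These sets of loci were put together after their values were seen, and the difference between them was not tested. Summed over its genes, each of the 5 loci was 3.99 to 5.45 times as high in *clk-2* as in N2, against 0.99 times at the *his-45* locus, 1.37 times at the *his-59* locus and 2.02 times for *his-63* and *his-64* together. Leaving out the abundant H4 genes *his-60* and *his-64*, the *his-59* locus was at 0.91 times and *his-63* at 0.80 times, while the H4 genes of the 5 loci stayed in their sums.

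**Figure D3:**
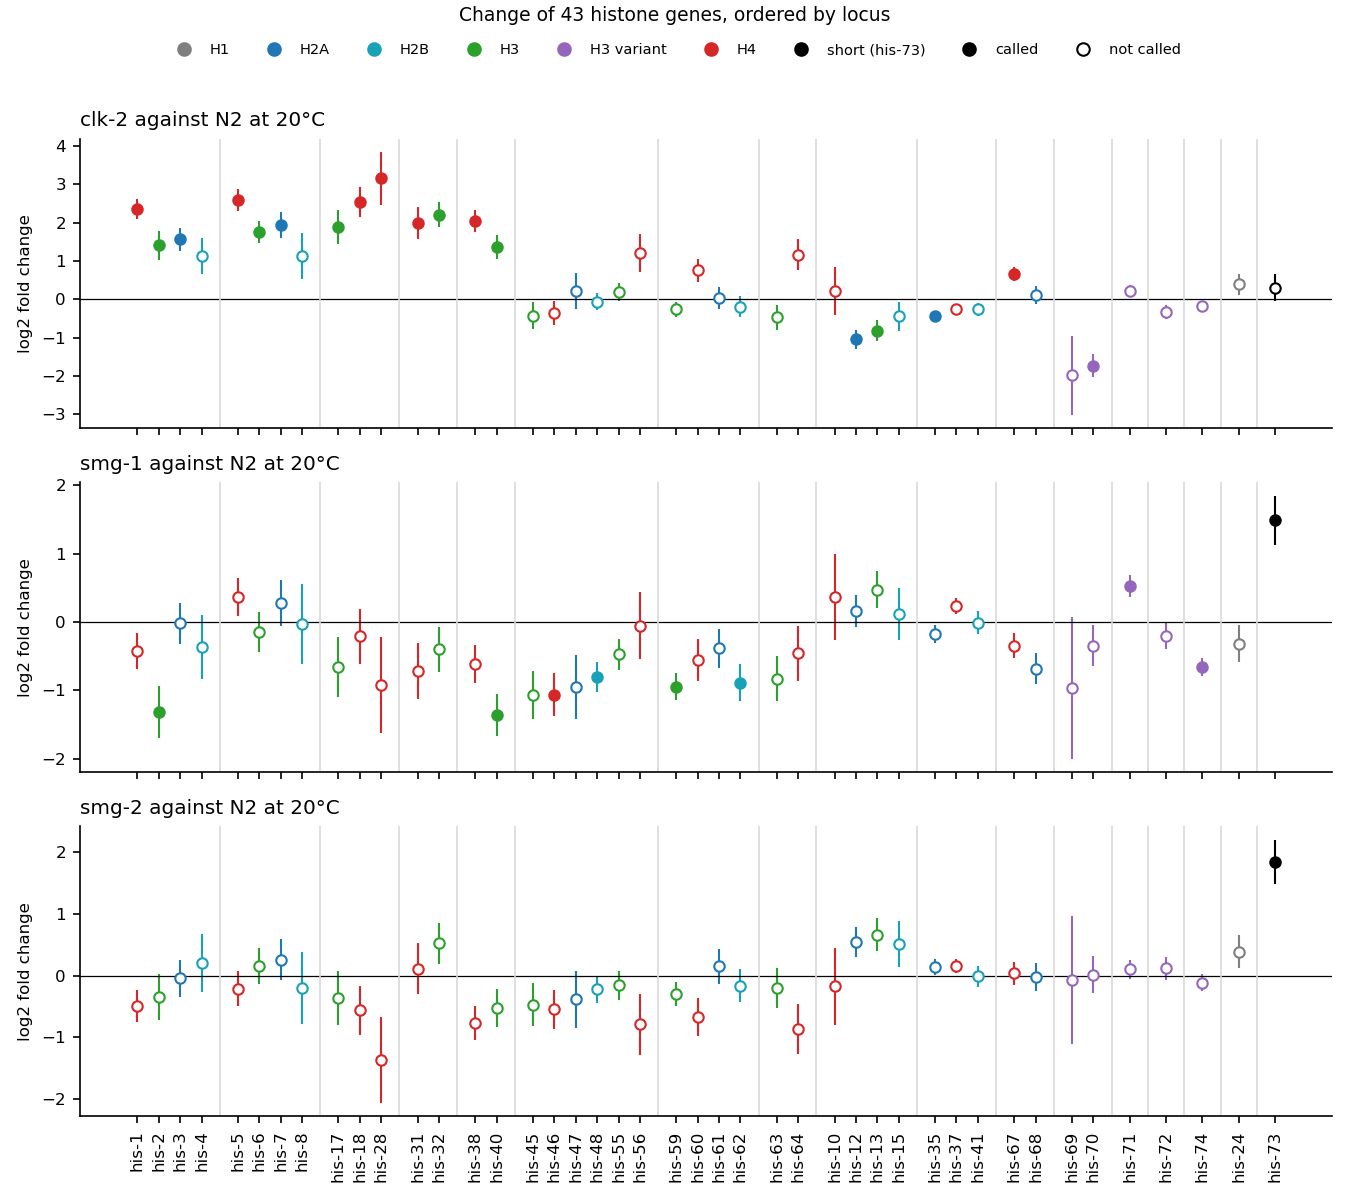
Log2 fold changes of the 43 tested histone genes against N2 at 20°C, arranged by locus, for each mutant. Colours give the histone type, bars are 1 standard error on each side, and grey lines part the loci. Filled symbols passed the test (limma, adjusted p under 0.05), and in *clk-2* 13 of the 15 genes at the *his-1*, *his-5*, *his-17*, *his-29* and *his-38* loci did so.

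The largest rises were in H4 genes. *his-28* was at 7.72 and 44.5 normalized counts in the N2 replicates, 212 and 147 in those of *clk-2*, 11.7 and 7.71 in *smg-1* and 4.02 and 10.8 in *smg-2* at 20°C, while at 25°C N2 was at 69.7 and *clk-2* at 122.9. At 20°C, both *clk-2* libraries were above all others, and N2 replicate 2 stood above N2 replicate 1. The log2 fold change in *clk-2* was 3.16 (standard error 0.70, limma adjusted p = 0.00836), and without *clk-2* replicate 1 it was 2.90, with an adjusted p of 0.0561 (limma). *his-5* was at 300.2 and 527 normalized counts in the N2 replicates, 2335 and 2471 in those of *clk-2*, 474 and 554 in *smg-1* and 259.5 and 453 in *smg-2* at 20°C, while at 25°C N2 was at 1147 and *clk-2* at 2625. *his-18* was at 257 and 531 normalized counts in the N2 replicates, 2086 and 2238 in those of *clk-2*, 316 and 323 in *smg-1* and 156 and 399 in *smg-2* at 20°C, while at 25°C N2 was at 882 and *clk-2* at 1967. For *his-5* and *his-18* the *clk-2* libraries lay above all 6 other libraries at 20°C without overlap, with log2 fold changes of 2.59 (standard error 0.28, limma adjusted p = 0.000165) and 2.54 (standard error 0.40, limma adjusted p = 0.00133).

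Likewise, H4 *his-1* and *his-38* rose by 2.37 and 2.05 on the log2 scale, and H4 *his-31* by 1.99. H3 genes at the same loci rose by amounts from 1.37 for *his-40* and 1.42 for *his-2* to 1.76 for *his-6*, 1.89 for *his-17* and 2.21 for *his-32*. The H2A genes *his-7* and *his-3* rose by 1.94 and 1.57. *his-3* was at 317 and 254 normalized counts in the N2 replicates, 665 and 1078 in those of *clk-2*, 338 and 231 in *smg-1* and 209 and 362 in *smg-2* at 20°C, while at 25°C N2 was at 495 and *clk-2* at 477. Both *clk-2* libraries at 20°C were above all others for *his-3*, with a standard error of 0.30 and an adjusted p of 0.00391 (limma). In the 15 head-to-head pairs, both neighbours rose in 5. Calls were alike in 11, a count that includes the pairs in which neither gene was called. The log2 fold changes of the partners differed by a median of 0.65, and most between *his-63* and *his-64* (1.63).

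Some of these calls were lost when 1 library was left out, in fits where the remaining library of the strain is assumed to vary like those of the other groups. Without *clk-2* replicate 2, *his-2* (log2 1.01), *his-17* (1.48), *his-40* (1.11) and *his-67* (0.53) were no longer called by limma, with fold changes in the same direction. The call of *his-2* was also lost without N2 replicate 1 (log2 1.26), and that of *his-67* without N2 replicate 2 (0.51). Of the 18 calls in either direction, 11 were kept under each alternative in which the gene was tested, and 4 of these 11 (*his-12*, *his-31*, *his-32* and *his-70*) were below the stricter filter of 100 normalized counts and not tested there.

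**Figure D4:**
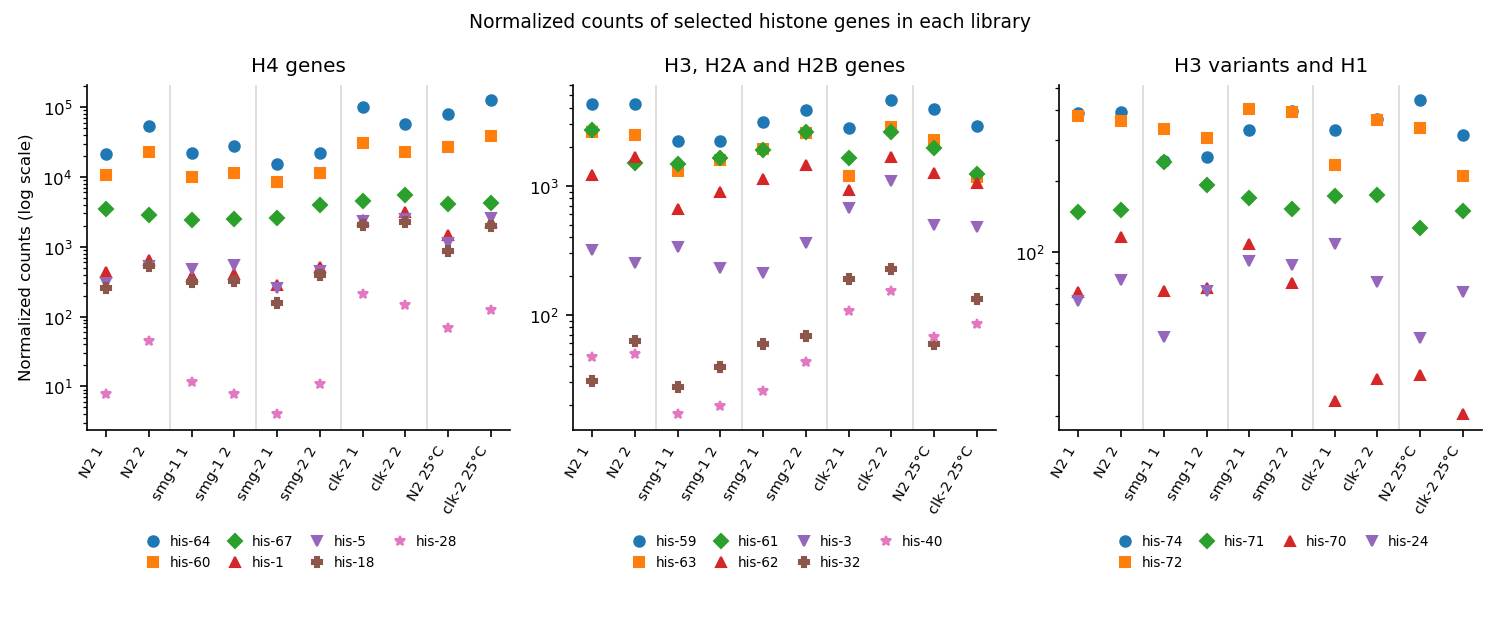
Normalized counts of selected H4 genes (left), H3, H2A and H2B genes (middle), and H3 variants and H1 (right) in each of the 10 libraries, on log scales, with the 4 strains at 20°C and the 2 libraries at 25°C. Each symbol is 1 gene in 1 library. For *his-5* and *his-18*, the *clk-2* libraries at 20°C lie above all other libraries at that temperature.

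The highest genes of the other core types did not pass the test in *clk-2*. *his-61* was at 2694 and 1503 normalized counts in the N2 replicates, 1623 and 2619 in those of *clk-2*, 1459 and 1624 in *smg-1* and 1895 and 2622 in *smg-2* at 20°C, while at 25°C N2 was at 1969.8 and *clk-2* at 1229. *his-62* was at 1219.9 and 1664 normalized counts in the N2 replicates, 922 and 1679 in those of *clk-2*, 660.1 and 896 in *smg-1* and 1119 and 1446 in *smg-2* at 20°C, while at 25°C N2 was at 1258 and *clk-2* at 1045. The *clk-2* libraries overlapped with N2 for both *his-61* (H2A) and *his-62* (H2B). *his-48* was at 1089 and 1270.4 normalized counts in the N2 replicates, 937 and 1359.9 in those of *clk-2*, 583 and 779 in *smg-1* and 848 and 1202 in *smg-2* at 20°C, while at 25°C N2 was at 1027 and *clk-2* at 977. For *his-48*, H2B of the *his-45* locus, *clk-2* replicate 1 was below and replicate 2 above both N2 libraries. *his-59* was at 4253 and 4278 normalized counts in the N2 replicates, 2798 and 4592 in those of *clk-2*, 2205 and 2224 in *smg-1* and 3125 and 3834 in *smg-2* at 20°C, while at 25°C N2 was at 3916 and *clk-2* at 2894. *his-63* was at 2612 and 2454 normalized counts in the N2 replicates, 1180.4 and 2861 in those of *clk-2*, 1294 and 1571 in *smg-1* and 1918 and 2539 in *smg-2* at 20°C, while at 25°C N2 was at 2255 and *clk-2* at 1171. For both H3 genes, *clk-2* replicate 1 was below and replicate 2 above N2. Log2 fold changes in *clk-2* were 0.04 for *his-61*, −0.20 for *his-62*, −0.06 for *his-48*, −0.25 for *his-59* and −0.46 for *his-63*, with adjusted p from 0.33 to 0.944 (limma).

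The genes that fell in *clk-2* were lower in reads than the highest H2A, H2B and H3 genes, though not lower than all genes that rose. *his-12* was at 75.1 and 81.2 normalized counts in the N2 replicates, 36.2 and 38.6 in those of *clk-2*, 99.0 and 77.1 in *smg-1* and 94.6 and 138 in *smg-2* at 20°C, while at 25°C N2 was at 55.6 and *clk-2* at 32.2. *his-13* was at 32.3 and 46.1 normalized counts in the N2 replicates, 23.3 and 19.9 in those of *clk-2*, 59.6 and 48.8 in *smg-1* and 61.7 and 61.6 in *smg-2* at 20°C, while at 25°C N2 was at 37.4 and *clk-2* at 17.6. At 20°C both genes, which belong to the *his-9* locus, were lowest in the *clk-2* pair, without overlap with any other library. Both share their Ensembl symbol with histone genes that are absent from the table. The log2 fold changes were -1.04 (standard error 0.24, limma adjusted p = 0.0101) for *his-12* and -0.81 (standard error 0.27, limma adjusted p = 0.0485) for *his-13*. The call of *his-13* was lost in 16 alternatives, for instance with DESeq2 (adjusted p = 0.181), and that of *his-35* in 10 (log2 −0.44, adjusted p = 0.0307 with limma and 0.109 with DESeq2). H4 *his-10* of the same locus was not called, and varied from 693 to 3207 normalized counts between the N2 replicates.

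Other transcripts were also compared between *clk-2* and N2. Of 39 sperm genes, 37 fell in *clk-2*, where 15.8% of all genes did, with a median log2 fold change of −1.91. The summed level of the sperm genes was 8441 and 8560.2 normalized counts in *clk-2* against 28644 and 35088 in N2. None of them was at 0 at 20°C. Of 14 oocyte and egg genes, 3 rose, where 12.2% of all genes did. Summed levels of the 14 overlapped, at 36260 and 48840 in *clk-2* and 41440 and 33309 in N2 (normalized counts, rounded to whole numbers). The early embryonic genes *pes-10* and *sdz-28* together were at 18.1 and 60.4 normalized counts in *clk-2*, 0 and 2.34 in N2, and 2.57 to 4.74 in the *smg* mutants. However, every gene of the table held at least 51 reads in all, and the other listed embryonic genes were absent. These 2 genes may be in the table only through their *clk-2* reads, so their higher level there cannot be read as a result. The part of sperm, oocyte and embryonic transcripts in the histone changes was not tested. In RNA from whole animals, fewer or more cells of a type and less or more RNA per cell cannot be told apart.

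Next, *smg-1* and *smg-2* were each compared with N2, using the same N2 libraries as above. In *smg-1*, 2 histone genes rose, where 12.3% of all genes did, and 7 fell, where 9.25% did. Histone genes had a median log2 fold change of −0.39, and all genes one of −0.02, and 34 of the 43 were below 0. Those that fell were H3 *his-2*, *his-40* and *his-59*, H4 *his-46*, H2B *his-48* and *his-62*, and the H3 variant *his-74*. *his-40* was at 47.0 and 50.0 normalized counts in the N2 replicates, 106 and 152 in those of *clk-2*, 17.04 and 19.7 in *smg-1* and 25.5 and 43.4 in *smg-2* at 20°C, while at 25°C N2 was at 67.2 and *clk-2* at 84.9. *his-2* was at 65.2 and 81.2 normalized counts in the N2 replicates, 148 and 259.8 in those of *clk-2*, 34.1 and 23.98 in *smg-1* and 39.6 and 82.0 in *smg-2* at 20°C, while at 25°C N2 was at 121 and *clk-2* at 114. *his-46* was at 83.5 and 129 normalized counts in the N2 replicates, 62.1 and 104 in those of *clk-2*, 55.4 and 43.7 in *smg-1* and 59.7 and 84.0 in *smg-2* at 20°C, while at 25°C N2 was at 93.0 and *clk-2* at 93.6. The *smg-1* libraries were below N2 without overlap for all of these 3 genes. The log2 fold changes in *smg-1* were -1.36 (standard error 0.31, limma adjusted p = 0.0132) for *his-40*, -1.32 (standard error 0.38, limma adjusted p = 0.0346) for *his-2* and -1.06 (standard error 0.32, limma adjusted p = 0.0402) for *his-46*. Without *smg-1* replicate 1 or without *smg-1* replicate 2, no histone gene was called, with adjusted p from 0.0667 to 0.297 and from 0.0535 to 0.214 for these 9 genes (limma). Over all genes, 6.19% rose and 1.82% fell in the first case, and 6.16% and 2.03% in the second. By a log2 fold change beyond 1 and an unadjusted p under 0.05, 1 histone gene was up in *smg-1*, where 8.98% of all genes were, and 4 were down, where 1.23% were.

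In *smg-2*, 1 histone gene rose, where 8.12% of all genes did, and none fell, where 0.981% did. The median log2 fold change was −0.12. At an unadjusted p under 0.05, limma gave 4 genes, and edgeR and DESeq2 called 1 each at an adjusted p under 0.05. The gene was *his-73*, which also rose in *smg-1*. *his-73* was at 18.9 and 46.8 normalized counts in the N2 replicates, 33.7 and 41.2 in those of *clk-2*, 83.0 and 88.2 in *smg-1* and 103.3 and 117 in *smg-2* at 20°C, while at 25°C N2 was at 17.4 and *clk-2* at 26.3. All *smg-1* and *smg-2* libraries were above all N2 and *clk-2* libraries, and N2 replicate 2 was more than 2-fold above N2 replicate 1. The log2 fold change was 1.49 (standard error 0.36, limma adjusted p = 0.018) in *smg-1* and 1.85 (standard error 0.36, limma adjusted p = 0.0091) in *smg-2*. Without *smg-2* replicate 1 or 2, *his-73* in *smg-2* was at 1.94 (adjusted p = 0.0617) or 1.76 (adjusted p = 0.0959, limma). Without N2 replicate 1, its log2 fold change in *smg-1* fell from 1.49 to 0.86, and it was no longer called there. In the same fit, 4 H4 genes had log2 fold changes in *smg-2* of −2.56 (*his-28*), −1.54 (*his-56*), −1.22 (*his-60*) and −1.55 (*his-64*). Without *smg-2* replicate 2, H4 *his-38* had a log2 fold change of −1.20 in *smg-2*. *his-73* (II, 13183705 to 13183845, plus strand) overlaps an exon of the protein-coding gene *W09H1.4* on the same strand, so reads of the overlap cannot be told apart.

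The mutants were also compared with each other. Between *smg-2* and *smg-1*, no histone gene was called by limma at an adjusted p under 0.05, where 0.498% of all genes were higher and 0.447% lower in *smg-2*. At an unadjusted p under 0.05 there were 11, and edgeR called 0 and DESeq2 1 at an adjusted p under 0.05. Over all genes, edgeR called 0.541% higher and 0.793% lower, and DESeq2 1.62% and 1.69%. A limma fit of these 2 strains alone called 8, all higher in *smg-2*, where 5.11% of all genes were higher and 6.14% lower in that fit. All 10 tested H3 genes had a log2 difference above 0, with a median of 0.61, and 10 of 13 H4 genes had one below 0, with a median of −0.15. Against the mean of both *smg* mutants, 18 histone genes were higher in *clk-2*, where 20.7% of all genes were, and 6 were lower, where 25.6% were. This comparison uses the *clk-2* libraries of the first one again. All its strains carry an H2B reporter but not the same one, R-1 in the *smg* mutants and R-2, with an additional H2B fusion, in *clk-2*. The 18 included H4 *his-64* and *his-60*, with log2 differences of 1.83 (standard error 0.35, limma adjusted p = 0.00207) and 1.36 (standard error 0.27, limma adjusted p = 0.00238), and the H2B gene *his-4* (1.20 (standard error 0.41, limma adjusted p = 0.0345)). Without *clk-2* replicate 2, *his-4* was at 0.55 (adjusted p = 0.331, limma).

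The linker histone H1 has 1 gene under this name. *his-24* was at 61.7 and 75.7 normalized counts in the N2 replicates, 109 and 74.6 in those of *clk-2*, 43.7 and 68.5 in *smg-1* and 91.9 and 88.1 in *smg-2* at 20°C, while at 25°C N2 was at 43.2 and *clk-2* at 67.3. *his-24* was not called in any mutant, with log2 fold changes of -0.32, 0.39 and 0.39 for the mutants in the order *smg-1*, *smg-2*, *clk-2* (limma adjusted p 0.452, 0.475 and 0.328). Noncoding RNA genes on the opposite strand overlap *his-24*, *his-4* and *his-8*, and since no strand setting of the counting was stated, their reads cannot be told apart. Exons of *his-37* overlap those of *nstp-10* (opposite strand), and exons of *his-41* those of *C50F4.6* (same strand). Both neighbours rose in *clk-2*, by 0.34 and 0.94 on the log2 scale, and their part in the counts was not tested.

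*his-71* and *his-72* encode H3.3, and *his-69*, *his-70* and *his-74* further H3.3-like proteins. *his-71* was at 149 and 151 normalized counts in the N2 replicates, 173 and 176 in those of *clk-2*, 242 and 193 in *smg-1* and 169 and 153 in *smg-2* at 20°C, while at 25°C N2 was at 126 and *clk-2* at 149. *his-72* was at 378 and 361 normalized counts in the N2 replicates, 236 and 365 in those of *clk-2*, 333 and 307 in *smg-1* and 407 and 394 in *smg-2* at 20°C, while at 25°C N2 was at 338 and *clk-2* at 211. *his-74* was at 391 and 394 normalized counts in the N2 replicates, 331 and 367 in those of *clk-2*, 243 and 254 in *smg-1* and 331 and 397 in *smg-2* at 20°C, while at 25°C N2 was at 442 and *clk-2* at 316. The *smg-1* libraries were above N2 for *his-71* and below N2 for *his-74*, without overlap. Log2 fold changes in *smg-1* were 0.52 (standard error 0.16, limma adjusted p = 0.0446) for *his-71* and -0.66 (standard error 0.13, limma adjusted p = 0.00799) for *his-74*, while *his-72* was at -0.21 (adjusted p = 0.468). The call of *his-71* was lost in 11 alternatives, for instance with DESeq2 (adjusted p = 0.0774). None of the 3 was called in *smg-2* or *clk-2*.

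The neighbours *his-70* and *his-69* were the lowest of the H3 variants. *his-70* was at 67.3 and 116 normalized counts in the N2 replicates, 23.3 and 28.9 in those of *clk-2*, 68.1 and 70.2 in *smg-1* and 108 and 73.8 in *smg-2* at 20°C, while at 25°C N2 was at 29.9 and *clk-2* at 20.5. In both *clk-2* libraries *his-70* was below all other libraries at 20°C, with a log2 fold change of -1.73 (standard error 0.30, limma adjusted p = 0.00231). *his-69* was at 15.4 and 16.4 normalized counts in the N2 replicates, 0 and 17.4 in those of *clk-2*, 8.52 and 6.85 in *smg-1* and 16.1 and 14.2 in *smg-2* at 20°C, while at 25°C N2 was at 8.3 and *clk-2* at 8.78. *his-69* had no read in *clk-2* replicate 1, where 3 reads, the limit that a count of 0 allows, would be 7.77 normalized counts, and *clk-2* replicate 2 was above both N2 libraries. It was not called in any comparison with N2, and counting error limits what can be seen for it.

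For N2 and *clk-2*, 1 library each was made after 3 hours at 25°C, so no test was run and genes at least 2-fold apart were counted. In N2, 7 histone genes were at least 2-fold higher at 25°C than the mean of the 20°C libraries on the log2 scale, where 1.18% of all genes were, and all 7 encode H4 (see the plot of differences at 25°C). They were *his-28* (log2 1.83), *his-5* (1.53), *his-1* (1.46), *his-18* (1.25), *his-64* (1.24), *his-38* (1.24) and *his-56* (1.21). The library at 25°C was above both N2 libraries at 20°C for 10 of 13 H4 genes and for 9 of the 30 other histone genes, and for 35.3% of all genes. *his-70* alone was at least 2-fold lower (-1.53), where 3.09% of all genes were. Between the N2 replicates at 20°C, H4 genes already differed by a median of 0.81 on the log2 scale, against 0.23 for all genes tested.

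In *clk-2*, 1 histone gene was at least 2-fold higher at 25°C (3.78% of all genes) and 2 were lower (3.01%). The higher one, *his-69* (1.19), rests on the library at 20°C without a read, and of the lower ones, *his-8* (-2.64) had 1 read at 25°C. The other was *his-17* (-1.37). Between the strains at 25°C, *his-31* (2.10), *his-5* (1.19), *his-18* (1.16) and *his-32* (1.13) were at least 2-fold higher in *clk-2*, where 12.7% of all genes were. *his-8* (-1.48), *his-13* (-1.05), *his-15* (-1.04) and *his-41* (-1.03) were at least 2-fold lower, where 6.19% were. The single libraries leave these differences without a replicate check.

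**Figure D5:**
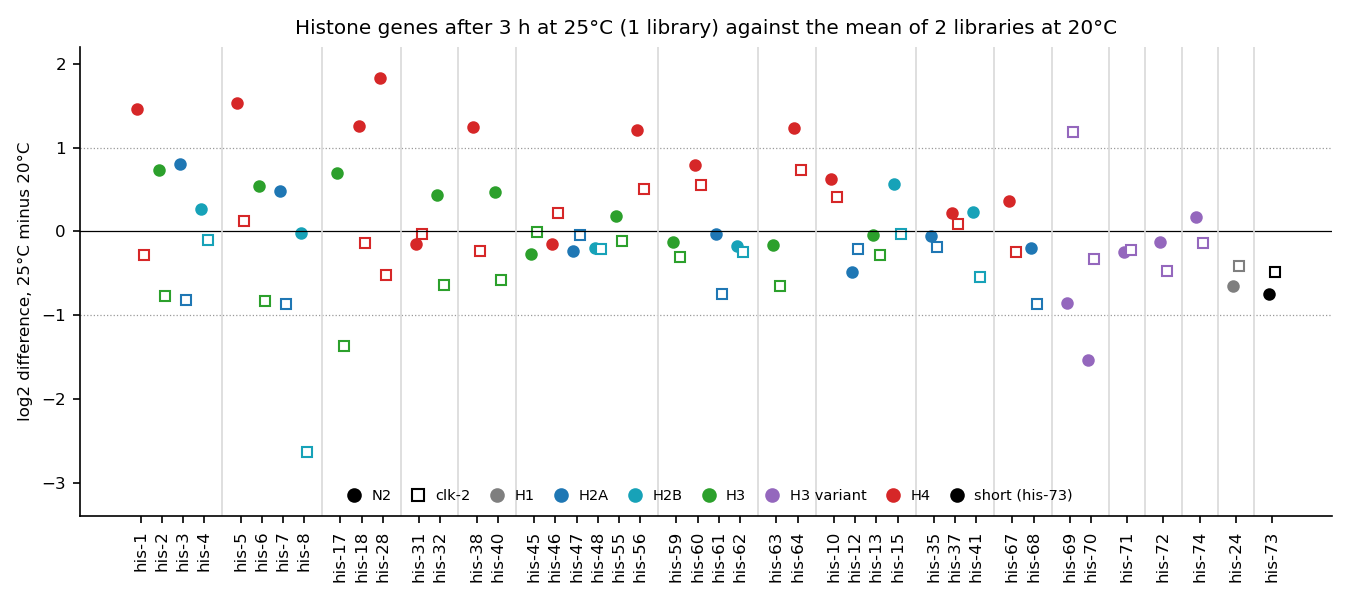
Log2 differences of the 43 tested histone genes between the single library at 25°C and the mean of the 20°C libraries, for N2 (filled circles) and for *clk-2* (open squares), ordered by locus and coloured by histone type. Dotted lines mark a 2-fold difference, and the 7 genes at least 2-fold higher in N2 at 25°C are H4 genes.

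Genes that act with the histones were read against the 12.2% of all genes that rose in *clk-2*. Of 14 genes for histone mRNA processing and histone chaperones, 1 rose, *rba-1* (log2 0.37), with a median of 0.12. *cdl-1*, the stem-loop binding protein of histone mRNAs, was at 0.21 and was not called. Of 8 other histone genes, which are not named *his-*, 1 rose, the H1-like *hil-2* (0.44), and the H2A.Z gene *htz-1* was at 0.27. Of 19 DNA replication genes, *mcm-7* (0.35), a subunit of the replicative helicase, and *rnr-2* (0.57), of ribonucleotide reductase, rose, with a median of 0.15. In *smg-1*, 6 of the 14 processing and chaperone genes, 3 of the 8 other histone genes and 9 of the 19 replication genes fell, where 9.25% of all genes did, and none rose, where 12.3% did. In *smg-2*, 1 replication gene fell, where 0.981% of all genes did. There, 7 of 39 sperm genes, 1 of 14 oocyte and egg genes and 1 of 6 vitellogenin genes fell as well, and 1 sperm gene rose. In *smg-1*, 13 of 14 oocyte and egg genes, 20 of 39 sperm genes and 6 of 6 vitellogenin genes fell too, and 1 sperm gene rose. Their part in the lower histone genes of *smg-1* was not tested.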

How the data were processed

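Total RNA of whole young adults was sequenced by the authors, who mapped reads with STAR 2.5.4a to WBcel235 and kept uniquely matching reads per gene. The deposited values (signal) are counts normalized by the authors with DESeq2, that is, reads divided by a size factor. All values of all 10 columns came back as whole reads within 0.001 (100% of values), which gave the depth and allowed count tests. Every column had a sample (0 without one), and every gene held at least 51 reads in all. No fold-change columns of the authors were used.

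Gene models and coordinates were taken from WBcel235, in which 14967 of 15106 identifiers matched. Histone types were assigned from the number of codons, except the H3 variants, which were set by gene name. No protein sequences were compared. log2(value + 1) of genes with a mean of at least 10 at 20°C was fitted over the 8 libraries at 20°C with limma 3.58.1 (R 4.3.3), with no block. A call is an adjusted p under 0.05. edgeR 4.0.16 and DESeq2 1.42.0 on the recovered reads were alternatives, besides pseudocounts of 0.1 and 10, other filters and scalings, separate fits, other call rules, a replicate block, gene subsets and leaving out each library. Fold changes on this scale understate those of low genes. On simulated reads with 200 genes changed 4-fold among 13869 (*clk-2* against N2), limma recovered 97.5% and also called 14 unchanged genes. The simulation gave all genes and libraries the same dispersion, unlike the real replicates, so it checks the code and does not measure recovery in these data. Tables were made with python 3.11.15.

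Full values are given for H1 and the H3 variants, the 2 highest members of each core type, and the 3 largest rises and falls among called members in each comparison with N2. The histone genes and the marker and pathway lists were chosen with earlier results of these data known. Levels per kb of uniquely matching sequence were not computed, since no genome was used here.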

Additional observations from a re-analysis of the deposited data

Results flagged for a closer look

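For 5 genes, *clk-2* was below N2 in the single libraries at 25°C, whereas each of the 4 pairs of *clk-2* and N2 libraries at 20°C had *clk-2* above N2. The difference between the temperatures was not tested. The log2 difference at 25°C was −0.086 for *his-2*, against 0.85 to 1.98 in the pairs at 20°C. It was −0.052 for *his-3* (1.07 to 2.08 at 20°C) and −0.18 for *his-17* (0.93 to 2.86). For *his-8* it was −1.48 (0.56 to 1.70), with 1 read in *clk-2* at 25°C. For *his-55* it was −0.11 (0.04 to 0.34).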

How the results depend on the processing

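For 11 counts and medians over the histone genes, 202 alternatives were computed. 181 stayed within the set margin and 21 moved by more. The small median of *smg-2* (−0.12) changed sign without *smg-2* replicate 1 (0.09). The only gene called in *smg-2*, *his-73*, lost its call without *smg-2* replicate 1 and without replicate 2. A filter at an average of 100 normalized counts left 25 histone genes, of which 9 were called in *clk-2*, 12 in *clk-2* against both *smg* mutants, 5 in *smg-1* and 0 in *smg-2*. At 25°C, that filter left 4 genes 2-fold apart between *clk-2* and N2, 5 in N2 against 20°C and 0 in *clk-2* against 20°C. With a log2 fold change beyond 1 and an unadjusted p under 0.05, 5 were called in *smg-1*. Between *smg-2* and *smg-1*, DESeq2 called 1 and a separate fit 8, all higher in *smg-2*. Over all genes, DESeq2 called 1.62% higher and the separate fit 5.11%. Between *clk-2* and N2 at 25°C, 5 genes remained 2-fold apart without H2B genes, and 4 were so with a pseudocount of 10. The causes were not tested, beyond the fewer genes that a filter leaves.

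Leaving out 1 library at a time changed the calls, among all genes as well as among the histone genes. The median log2 fold change ranged from 0.20 to 0.54 in *clk-2*, from −0.66 to −0.17 in *smg-1* and from −0.35 to 0.09 in *smg-2*. The 0.54 came without N2 replicate 2.

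Correlations of replicate differences between strains over 13869 genes ranged from −0.27 (N2 and *clk-2*) to 0.10 (N2 and *smg-2*). Columns without a suffix were taken as replicate 1. Whether libraries of different strains shared a batch cannot be told from these values. With the replicate block, 17 histone genes were called in *clk-2*, 9 in *smg-1*, 1 in *smg-2* and 0 between *smg-2* and *smg-1*. Over all genes, 10.6% rose and 14.8% fell in *clk-2*, 10.9% and 7.29% in *smg-1*, and 7.25% and 0.584% in *smg-2*. Between *smg-2* and *smg-1*, 0.245% were higher and 0.224% lower. A block with crossed *clk-2* numbers, chosen after seeing the data, called 20 in *clk-2*, 10 in *smg-1* and 2 in *smg-2*. Over all genes it called 13.1% up and 16.5% down in *clk-2*, 12.8% and 10.9% in *smg-1*, and 8.34% and 1.32% in *smg-2*.

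With 2 libraries a group, and 1 at 25°C, small changes could not be seen. 5 histone genes were under 10 normalized counts in at least 1 library at 20°C.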

Other observations

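The ratio of H4 to H3 differed also between neighbours that share an upstream region. *his-64* was 8.05 to 107.7 times as high as *his-63*, with which it lies head to head, over the 10 libraries. The lowest values were in *smg-2* replicate 1 and N2 replicate 1, and the highest in *clk-2* at 25°C. Among H4 genes of different loci, the ratio of *his-64* to *his-60* stayed between 1.84 and 3.34, while that of *his-10* to *his-64* ran from 0.0183 to 0.0867. The ratios are of normalized counts within a library, so they do not depend on the size factor.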
